A study of Mus musculus with 16 samples.

Results

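The regenerating (Reg) genes of the mouse encode small secreted C-type lectins, and 6 of them, Reg1, Reg2, Reg3a, Reg3b, Reg3d and Reg3g, were followed by their gene symbols through both FPKM tables of an islet RNA sequencing study. All 6 were found in both tables, which have 16815 genes in common. The family was chosen by its FPKM values in these 16 libraries, above all by the differences between the chow-fed ones, so the members' values in both tables are given as a description with no test. Islets were handpicked after collagenase digestion, and 16 libraries were made, 4 in each of 4 groups.

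Flox mice carried B7-H4 fl/fl alleles, in which exon 2 of Vtcn1, the gene of the immune checkpoint molecule B7-H4, lies between loxP sites, on a C57BL/6J background. B7-H4 cKO mice carried the same alleles and, by the study's methods, the Rip-Cre transgene Tg(Ins2-cre)25Mgn, driven by the rat insulin II promoter. GEO's design text also describes a Pdx-Cre cross, and the sample labels only say cKO. Both groups ate chow, and their age is not given in the sources used here. No library came from mice with Cre alone, so Cre and the deletion cannot be told apart. The other mice began a high-fat diet (HFD) at 6 weeks of age, ate it for 8 weeks, and were then infused through the pancreatic duct with an AAV2/8 control virus (Ctrl) or with AAV2/8-ins2-B7H4 (OE), which carries B7-H4 and ZsGreen under an insulin 2 promoter. Their islets were taken 5 weeks after the infusion. The study's methods call these mice Flox and GEO's design text calls them WT. The labels do not say whether a library came from 1 mouse or from pooled islets, so p-values measure the spread between libraries, which may in part be technical.

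Reg proteins are made mainly by the acinar cells of the exocrine pancreas and by the gut epithelium. Reg1 and Reg2 are pancreatic secretory products that were first described in regenerating islets, Reg3b and Reg3g are antimicrobial lectins of the gut that rise in the pancreas during pancreatitis, and Reg3d and Reg3a are close relatives. Cytokines of the IL-6 and IL-22 families induce several Reg genes through Stat3, and Extl3 has been proposed as a Reg receptor.

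The 6 genes lie in 1 cluster of 98.2 kb on chromosome 6 of GRCm38, from 78370657 to 78468872, in the order Reg3b, Reg3d, Reg3a, Reg2, Reg1 and Reg3g. Reg3d and Reg3g are on the minus strand and the other 4 genes are on the plus strand. The coding transcript of each member has 6 exons. Among the coding sequences, Reg1 and Reg2 were 78.7% identical and Reg3b and Reg3g 75.9%, and the longest run of bases that any pair shared in full was the 35 bases of Reg3b and Reg3g. How the authors assigned reads that match more than 1 of these genes is not given in the sources used here, so the split of signal between the closest relatives is uncertain. Reg4, a relative on chromosome 3, was listed at 0 in 12 of the 16 libraries and reached at most 0.741 FPKM, in Ctrl5.

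The promoters of 4 members are shown because Reg2 and Reg3b differed most between the libraries and did so together, whereas Reg1 and Reg3d followed the acinar genes in the HFD libraries. Each covers 300 bases around the start site, most of them upstream, in RefSeq's GRCm38.p6 annotation and is written 5′ to 3′ on the strand of the gene. Capitals mark matches to TTCNNNGAA, or to TTC and GAA with 4 bases between them, the palindromes that Stat factors are known to bind.
Reg2 (chr6:78404905-78405204, strand plus): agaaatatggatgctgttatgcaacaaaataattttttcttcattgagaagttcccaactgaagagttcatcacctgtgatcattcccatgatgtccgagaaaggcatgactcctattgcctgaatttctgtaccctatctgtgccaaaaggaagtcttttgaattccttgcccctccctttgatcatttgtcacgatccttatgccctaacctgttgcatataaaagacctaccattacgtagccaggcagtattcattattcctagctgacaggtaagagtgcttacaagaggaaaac
Reg3b (chr6:78370635-78370934, strand plus): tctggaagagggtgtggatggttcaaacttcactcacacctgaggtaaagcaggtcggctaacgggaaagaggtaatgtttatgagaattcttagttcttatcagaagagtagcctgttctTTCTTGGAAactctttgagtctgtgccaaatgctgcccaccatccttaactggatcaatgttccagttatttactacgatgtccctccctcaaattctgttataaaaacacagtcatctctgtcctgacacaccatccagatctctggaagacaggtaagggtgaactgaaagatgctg
Reg1 (chr6:78425733-78426032, strand plus): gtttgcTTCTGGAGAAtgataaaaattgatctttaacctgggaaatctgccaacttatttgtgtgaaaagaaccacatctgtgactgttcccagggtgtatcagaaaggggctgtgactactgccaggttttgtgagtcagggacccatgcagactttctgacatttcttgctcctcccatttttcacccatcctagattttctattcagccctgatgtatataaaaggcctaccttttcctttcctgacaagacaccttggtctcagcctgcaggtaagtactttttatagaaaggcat
Reg3d (chr6:78378816-78379115, strand minus): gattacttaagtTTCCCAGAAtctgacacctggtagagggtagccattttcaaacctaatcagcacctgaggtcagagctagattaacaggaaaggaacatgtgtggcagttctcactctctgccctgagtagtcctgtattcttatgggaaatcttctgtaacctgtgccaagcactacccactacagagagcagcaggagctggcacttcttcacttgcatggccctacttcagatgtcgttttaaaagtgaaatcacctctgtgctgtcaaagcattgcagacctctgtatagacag

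Both palindromes and the letters TTTCCC and TATAAA were searched on both strands of all 32851 RefSeq promoter windows of this length. TTCNNNGAA stood in the windows of Reg3b and Reg3d, and in 8.3% of all windows. In Reg3b it was TTCTTGGAA at bases -129 to -121 from the start site, and in Reg3d TTCCCAGAA at -238 to -230. The palindrome with 4 bases between its arms stood in the window of Reg1 alone among the members, at -244 to -235, and in 6.95% of all windows. TTTCCC matched in the windows of Reg1, Reg3b, Reg3d and Reg3g, and in 25.2% of all windows. In Reg3d one such match overlaps the palindrome. TATAAA matched in Reg1, Reg2, Reg3b and Reg3g, and in 13.6% of all windows. Reg2, whose levels differed most, held neither palindrome in this window. The windows of Reg3b and Reg3g were the most alike, with 68.6% of their bases identical.

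Values are FPKM, fragments scaled to transcript length and library total, as the authors deposited them. Read totals are not in the tables, so depth in reads is unknown and no counting interval is given. Relative depth, read from the steps between the lowest values, ranged from 0.942 to 1.07 of the table's median in the chow table and from 0.840 to 1.08 in the HFD table. The search was limited to depths near that of the first library of each table, so it could not have shown a large difference. Vtcn1 was at or under 0.216 FPKM in all Flox and cKO libraries, so the table cannot show the deletion. It was 0.0636 to 0.371 FPKM in Ctrl and 40.0 to 128 FPKM in OE. Insulin and other β-cell markers held 35.4% to 54.7% of all FPKM in Flox, 25.8% to 32.8% in cKO, 4.38% to 55.1% in Ctrl and 47.0% to 51.1% in OE.

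Libraries stood apart by their exocrine content. The 24 acinar marker genes, led by Ctrb1 (a chymotrypsinogen) and Cela2a (an elastase), held 28.8% and 36.9% of all FPKM in Flox16 and Flox17, 11.1% and 7.74% in Flox20 and Flox21, and 37.8% to 47.8% in the cKO libraries. They held 5.73% in Ctrl1, 59.8% in Ctrl2, 78.1% in Ctrl3, 2.25% in Ctrl5 and 11.5% to 15.0% in OE. None of the 24 markers was at 0 in any library. Acinar cells make Reg1, so these shares stand beside every level below. In such bulk samples fewer cells of a type and less RNA per cell cannot be told apart.

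Reg1 was the most abundant member in every library and the 25th most abundant gene of the 11804 tested in the chow table. It stood at 4501, 4699, 2258 and 1605 FPKM in Flox16, Flox17, Flox20 and Flox21, compared with 4806, 3308, 2819 and 4456.5 FPKM in cKO8, cKO9, cKO12 and cKO38. The Flox group split into a high and a low pair, and the cKO values lay within or just above the Flox range. The low pair, Flox20 and Flox21, was the pair with the lowest acinar share.

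Reg2, the closest relative of Reg1, had the opposite split. Its level was 41.6, 163, 1147 and 820 FPKM in Flox16, Flox17, Flox20 and Flox21, and 46.8, 18.3, 11.8 and 27.2 FPKM in cKO8, cKO9, cKO12 and cKO38. Flox20 and Flox21 stood above all other chow libraries, Flox16 lay within the cKO range, and the groups overlapped. Over the 8 chow libraries Reg2 ranged 97.2-fold, the 4th widest range on the log2(FPKM + 0.5) scale among the 11804 genes.

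Reg3b, the antimicrobial lectin also known as pancreatitis-associated protein, was split in the same way. It was at 14.2, 52.6, 517 and 426 FPKM in Flox16, Flox17, Flox20 and Flox21, compared with 29.9, 10.1, 17.7 and 26.2 FPKM in cKO8, cKO9, cKO12 and cKO38. Again Flox20 and Flox21 were far above the rest, while Flox16 was within the cKO range. Its range of 51.0-fold was the 7th widest.

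Reg3a was the only member whose Flox and cKO values did not overlap. Its level was 1.75, 11.7, 20.4 and 18.1 FPKM in Flox16, Flox17, Flox20 and Flox21, and 1.22, 0.317, 0.580 and 0.491 FPKM in cKO8, cKO9, cKO12 and cKO38. The gap was narrow, between 1.75 FPKM in Flox16 and 1.22 FPKM in cKO8, and of all genes tested 15.4% had every cKO value below every Flox value and 1.32% had every one above.

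Reg3g, the second antimicrobial lectin, was low in all chow libraries. It was at 0.659, 12.7, 4.47 and 6.57 FPKM in Flox16, Flox17, Flox20 and Flox21, compared with 0.513, 2.10, 1.21 and 0.930 FPKM in cKO8, cKO9, cKO12 and cKO38. Here Flox17 was the highest library rather than Flox20 or Flox21. In Flox17 the 17 intestinal epithelial markers of the chow table summed to 100 FPKM with 2 of them at 0, against 45.3 to 68.5 FPKM with 9 to 12 at 0 in the other 7 libraries. The part of these markers in the level of Reg3g was not tested.

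Reg3d differed least. It was at 73.4, 78.8, 71.97 and 55.7 FPKM in Flox16, Flox17, Flox20 and Flox21, compared with 66.1, 59.9, 62.2 and 75.2 FPKM in cKO8, cKO9, cKO12 and cKO38. The groups overlapped, and its range of 1.41-fold ranked 11043rd of 11804 genes.

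**Figure D1:**
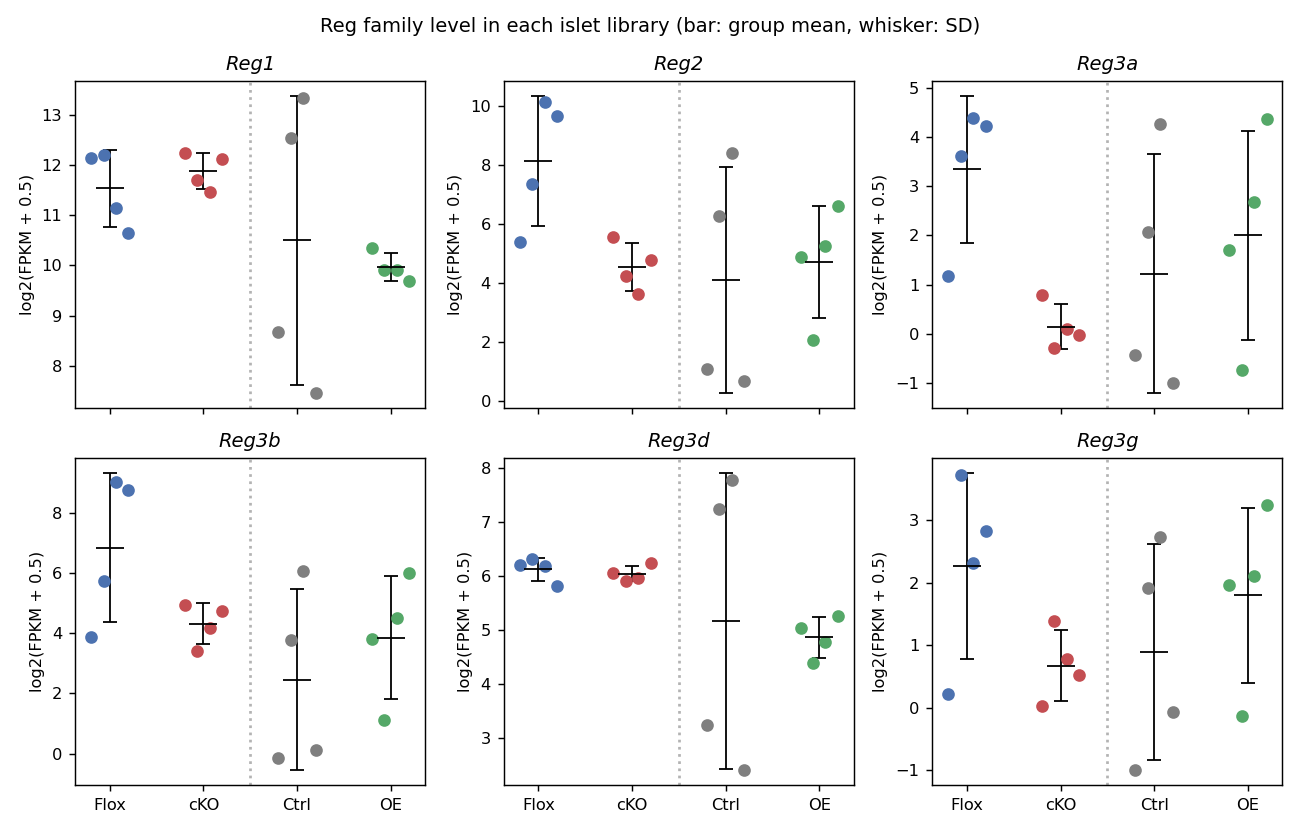
Level of each Reg gene as log2(FPKM + 0.5), with 1 point per islet library in the chow table (Flox, cKO) and the HFD table (Ctrl, OE), 4 libraries a group, the bar at the group mean and whiskers of 1 SD. Reg2 and Reg3b are high in 2 Flox libraries, Reg3d is nearly level in chow, and the Ctrl libraries spread widely for Reg1 and Reg3d.

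Between the chow groups the differences in mean log2(FPKM + 0.5), cKO less Flox, with n = 4 a group, were described without a test. They were -3.60 (SE 1.16) for Reg2, -3.20 (SE 0.76) for Reg3a, -2.52 (SE 1.26) for Reg3b and -1.59 (SE 0.78) for Reg3g. For Reg1 the difference was 0.35 (SE 0.41) and for Reg3d -0.08 (SE 0.15). Thus 4 of the 6 members lay below -1, where 1.65% of the 11804 genes lay, and the median of the members was -2.06 against -0.34 for all genes. Since the family was chosen with this contrast known, nothing is read from these counts.

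The differences for Reg2 and Reg3b rested largely on Flox20 and Flox21. Without these 2 libraries, a choice made after the values were seen, the difference was -1.82 for Reg2, -0.49 for Reg3b, -2.24 for Reg3a and -1.29 for Reg3g. With the acinar marker level as a covariate it was -1.30 for Reg2, -2.04 for Reg3a, -1.56 for Reg3g and 0.14 for Reg3b. Acinar shares were higher in every cKO library than in any Flox library. On the scale of the covariate, the mean log2(FPKM + 0.5) of the markers, the groups overlapped only by Flox17 (12.18) above cKO8 (12.12). This fit therefore cannot cleanly separate genotype from exocrine content. The difference for Reg1 was -0.29 without the 2 libraries and -0.54 with the covariate. With the 3 libraries per group that the study drew in its heatmaps, which leave out Flox17 and cKO8 here, Reg2 was at -4.20 and Reg3g at -0.89.

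The make-up of the family moved more than its sum. The 6 members together held 0.427% to 0.656% of all FPKM in Flox and 0.390% to 0.670% in cKO. Reg1 made up 97.2% of the family's FPKM in Flox16, 93.6% in Flox17, 56.2% in Flox20 and 54.8% in Flox21, and 96.8% to 97.3% in cKO. In Flox20 and Flox21 Reg2 contributed 28.5% and 28.0% and Reg3b 12.9% and 14.5%. The ratio of Reg2 to Reg1 was 0.508 and 0.511 in these libraries, and between 0.00419 and 0.0348 in the other 6.

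**Figure D2:**
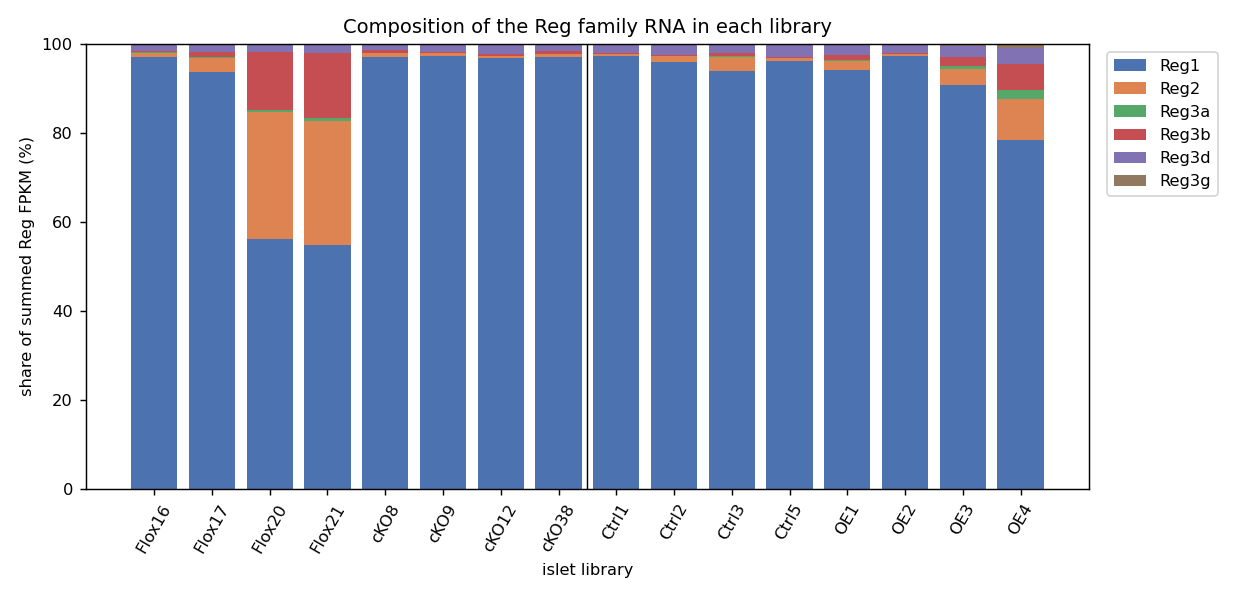
Share of the summed FPKM of the 6 Reg genes taken by each gene, in percent, in each of the 16 libraries, with the chow table left of the line and the HFD table right of it. Reg1 makes up over 90% of the bar in 13 libraries, and 56.2%, 54.8% and 78.5% in Flox20, Flox21 and OE4.

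In the HFD table the spread was of another kind, and it was widest within the control-virus group. Reg1 was at 408, 5936, 10294 and 176 FPKM in Ctrl1, Ctrl2, Ctrl3 and Ctrl5, and at 1303, 955, 962 and 826 FPKM in OE1, OE2, OE3 and OE4. Ctrl2 and Ctrl3 lay above all OE libraries, and Ctrl1 and Ctrl5 below all of them. The 4 OE libraries differed by 1.58-fold at most, while the Ctrl libraries differed by 58.4-fold.

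Reg3d had the same order of groups. It was at 8.88, 152, 220 and 4.79 FPKM in Ctrl1, Ctrl2, Ctrl3 and Ctrl5, and at 32.3, 20.3, 26.9 and 37.8 FPKM in OE1, OE2, OE3 and OE4. As for Reg1, the OE libraries sat between a high and a low pair of Ctrl libraries. In chow its values had spanned only 55.7 to 78.8 FPKM.

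Reg2 was spread in both HFD groups. It was at 1.61, 76.9, 343 and 1.11 FPKM in Ctrl1, Ctrl2, Ctrl3 and Ctrl5, and at 29.3, 3.69, 38.3 and 96.8 FPKM in OE1, OE2, OE3 and OE4. Its range of 309-fold over the 8 libraries was the second widest of 12132 genes, and OE2 was the lowest OE library.

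Reg3b followed Reg2. It was at 0.402, 13.0, 66.9 and 0.599 FPKM in Ctrl1, Ctrl2, Ctrl3 and Ctrl5, and at 13.4, 1.69, 21.9 and 62.9 FPKM in OE1, OE2, OE3 and OE4. OE4 came close to Ctrl3, although its acinar share was 11.5% against 78.1%.

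Reg3a was at 0.243 FPKM in Ctrl1, 3.72 FPKM in Ctrl2 and 18.7 FPKM in Ctrl3, was listed at 0 in Ctrl5, and was at 2.77, 0.104, 5.90 and 20.04 FPKM in OE1, OE2, OE3 and OE4. Reg3g was listed at 0 in Ctrl1, was at 3.26 FPKM in Ctrl2, 6.12 FPKM in Ctrl3 and 0.453 FPKM in Ctrl5, and at 3.38, 0.415, 3.82 and 8.98 FPKM in OE1, OE2, OE3 and OE4. For both genes OE4 was the highest and OE2 the lowest OE library, and the groups overlapped. Within the OE group alone, Reg3a, Reg3b and Reg2 had the 3 widest ranges of the 12132 genes, and Reg3g the 6th. Of the 21 intestinal markers of the HFD table, 10 were at 0 in OE2, against 0 in OE1, 1 in OE3 and 6 in OE4. Their sum was 74.7 FPKM in OE2 and 81.1 to 96.8 FPKM in the other 3, and their part in the Reg levels was not tested.

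The comparison of OE with Ctrl asks whether B7-H4 carried by the virus goes with a change in the family. Since the members were chosen by their values in these libraries too, their differences are described here with no test. All 6 members overlapped between the groups. A call, here and below, needed a limma adjusted p under 0.05 with a log2 fold change beyond 1 in either direction. Of all 12132 genes 0.033% were called, and 6.41% had an unadjusted p under 0.05. Groups did not overlap for 5.61% of all genes in the higher and 0.964% in the lower direction. Of the members, 1 (Reg3b), lay above 1 and none below -1, where 7.05% and 0.536% of all genes lay. Nothing is read from these shares for the members. Reg3b differed by 1.40 on the log2(FPKM + 0.5) scale (SE 1.42), the widest gap in the family. Differences of Reg3g, Reg3a and Reg2 were 0.90 (SE 0.83), 0.78 (SE 1.27) and 0.60 (SE 1.88). Reg1 and Reg3d had differences of -0.54 (SE 1.11) and -0.30 (SE 1.04). The median of the members was 0.69 against 0.44 for all genes. The wide spread within Ctrl, and for Reg2, Reg3a, Reg3b and Reg3g also within OE, left standard errors near or above the size of the differences.

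These differences depended on Ctrl2 and Ctrl3, the libraries with the highest acinar shares. Without them, a choice made after the values were seen, the differences were 1.89 for Reg1, 2.05 for Reg3d, 3.83 for Reg2 and 3.86 for Reg3b. The removed libraries were those with the highest Reg1 and Reg3d of all HFD libraries, and Ctrl3 also had the highest Reg2 and Reg3b. The Ctrl libraries left, Ctrl1 and Ctrl5, lay below every OE library for each of these genes, so the removal itself set the direction. The same removal moved the whole table, with 81 genes called higher and 568 lower in OE of 12311 tested, against 4 and 0 with all libraries. With the acinar level as a covariate Reg1 was at -0.12, Reg3d at 0.092 and Reg3b at 1.80, and 278 genes were called higher and 52 lower of 12132. With the 3 libraries per group of the study's heatmaps the differences of Reg2, Reg3a, Reg3b and Reg3g turned negative, to between -1.05 and -0.19.

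**Figure D3:**
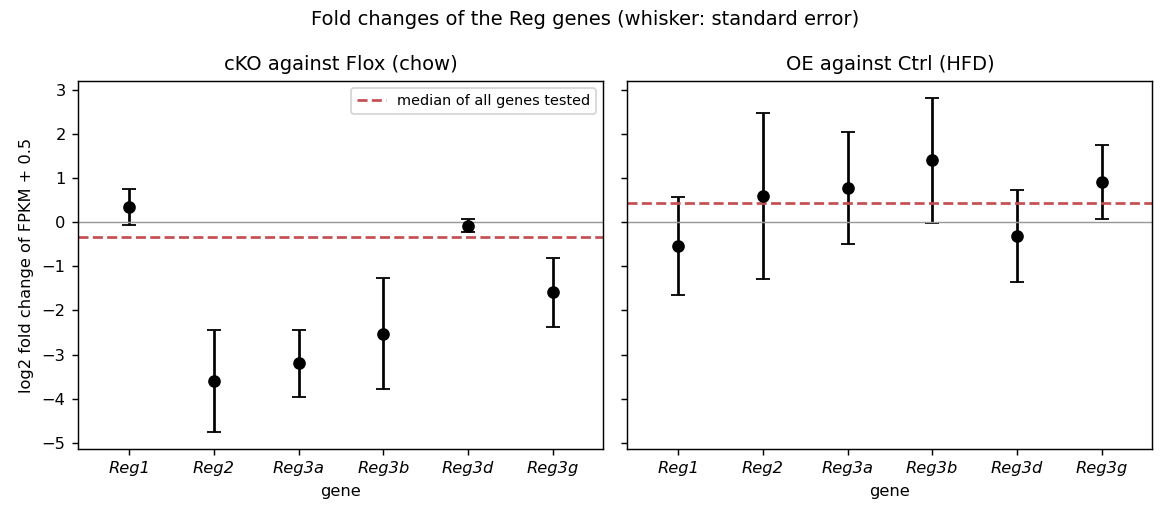
Difference in mean log2(FPKM + 0.5) of each Reg gene, cKO less Flox at left and OE less Ctrl at right, with 1 standard error as whiskers and the median of all genes tested as a dashed line (-0.34 and 0.44). In chow 4 genes lie below -1, with no test applied, and in HFD the whiskers of 5 genes reach 0 and that of Reg3g ends just above it.

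Ratios within a library were set side by side as well, since they remove a factor common to both genes, and these too are descriptions. Reg1 per 1000 FPKM of acinar markers was 10.2 to 15.2 in Ctrl and 9.73 to 11.6 in OE. Reg3d per 1000 FPKM of acinar markers was 0.223 to 0.326 in Ctrl and 0.223 to 0.445 in OE. Per acinar FPKM these 2 genes thus spanned a far narrower range than their own FPKM, which differed by up to 58.4-fold for Reg1 and 46.0-fold for Reg3d. The ratio of Reg3b to Reg3d was 0.0452 to 0.304 in Ctrl and 0.0830 to 1.66 in OE, and that of Reg2 to Reg1 0.00395 to 0.0333 in Ctrl and 0.00387 to 0.117 in OE. The ratio of Reg2 to Reg3b was 1.85 to 5.91 in Ctrl and 1.54 to 2.19 in OE. All 5 ratios overlapped between OE and Ctrl.

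Levels against the acinar marker level, the mean log2(FPKM + 0.5) of the 24 markers, are described over the 8 HFD libraries, with no test. Pearson's r was 0.997 for Reg1 (Spearman's rho 1.0) and 0.984 for Reg3d (rho 0.857). For Reg2 r was 0.839 (rho 0.738). Without Ctrl3 and Ctrl5, the 2 libraries farthest from the median, r was 0.999 for Reg1 and 0.959 for Reg3d but 0.614 for Reg2. For Reg3b, Reg3a and Reg3g r was 0.689, 0.655 and 0.611 (rho 0.643, 0.524 and 0.452). After the removal of the group means, r was 0.998 for Reg1 and 0.984 for Reg3d. The 4 OE libraries lay close together on the acinar scale, so these relations rest mainly on the Ctrl libraries.

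In the chow table Flox20 and Flox21 lay apart from the other 6 libraries, so no r over all 8 is given. Within the other 6, r with the acinar level was -0.51 for Reg1, -0.46 for Reg2, -0.46 for Reg3a, -0.07 for Reg3b, -0.40 for Reg3d and 0.14 for Reg3g. These are descriptions over 6 libraries whose acinar shares span only 28.8% to 47.8%. The tightness of Reg1 and Reg3d in the HFD table was thus not seen among them.

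**Figure D4:**
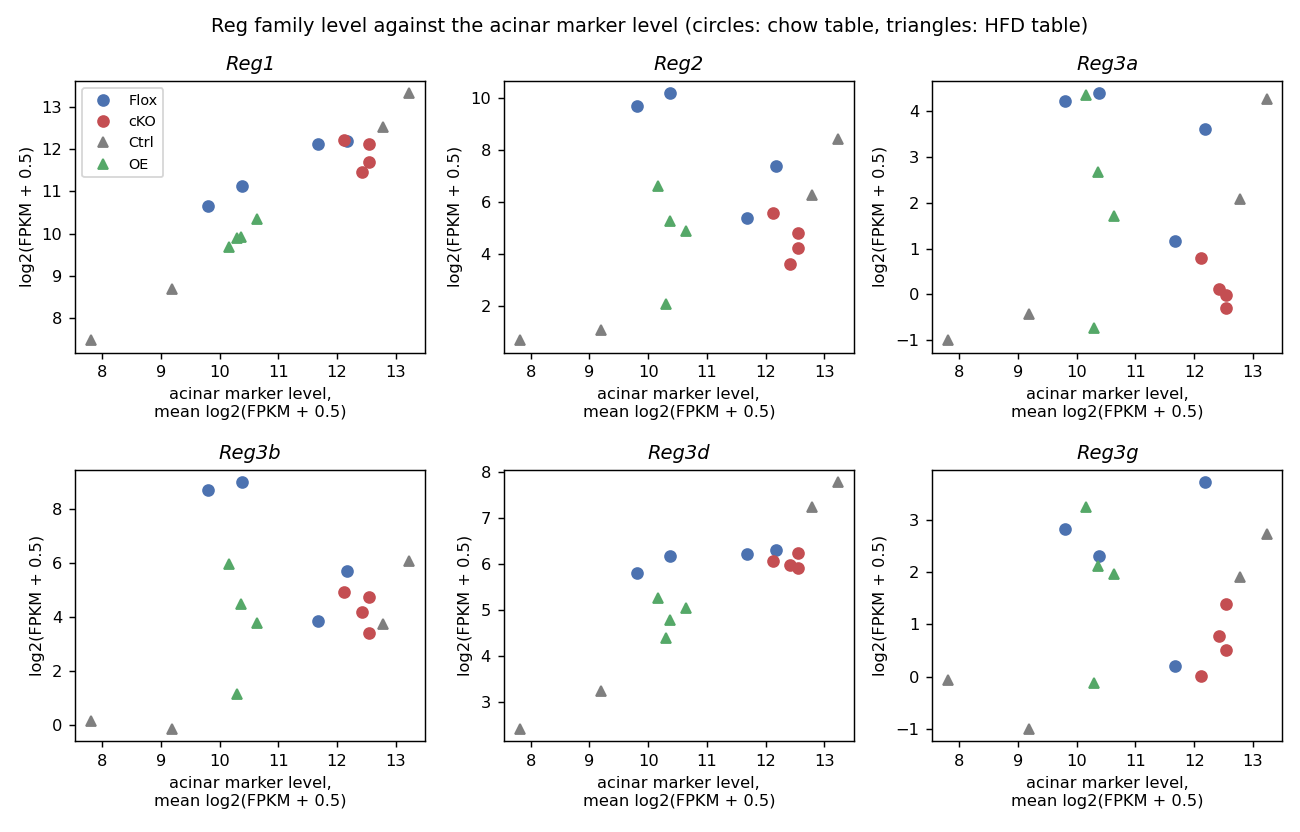
Level of each Reg gene as log2(FPKM + 0.5) against the mean log2(FPKM + 0.5) of the 24 acinar markers, 1 point per library, with circles for the chow table and triangles for the HFD table. Reg1 and Reg3d fall on a line in the HFD libraries, while Reg2 and Reg3b are highest in the 2 Flox libraries with the lowest acinar level.

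Among themselves the members fell into sets that differed between the tables. Over the 8 libraries of a table, r between Reg2 and Reg3b was 0.958 in chow and 0.967 in HFD, between Reg2 and Reg3a 0.961 and 0.953, and between Reg3a and Reg3b 0.898 and 0.979. Reg1 and Reg3d had r of 0.672 and 0.982. Between Reg1 and its closest relative Reg2, r was -0.592 in chow and 0.837 in HFD. These values are descriptions, since all genes of a library share its cell content and the chow values rest in large part on Flox20 and Flox21.

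Of 11553 genes, members included, those outside the family most like each member were ranked by the smaller r of both tables (8 libraries each). For Reg1 they included Rab27b (0.889), which encodes a GTPase of secretory granules, and Hpn (0.858), a transmembrane serine protease. Rab27b was low, at 0.266 to 1.45 FPKM over all libraries. Hpn was at 6.35, 8.76, 3.35 and 1.61 FPKM in the Flox libraries in the order given above and at 1.34, 10.8, 15.8 and 1.14 FPKM in the Ctrl libraries, the same high and low pairs as Reg1. For Reg2 they were Prr15l (0.836), Ahcy (0.783), the S-adenosylhomocysteine hydrolase, and Lrg1 (0.759), an acute-phase glycoprotein. Prr15l (0.753), Lrg1 (0.752) and Gm4737 (0.715) led for Reg3b, and Lrg1 (0.772), Prr15l (0.661) and Gm4737 (0.632) for Reg3a. Lrg1 was at 0.847, 0.784, 2.33 and 3.61 FPKM in the Flox libraries, 0.228 to 0.883 FPKM in cKO, and was highest in Ctrl3 (4.23 FPKM) and OE4 (3.24 FPKM) of the HFD libraries. For Reg3d they were Nr0b2 (0.638), an orphan nuclear receptor, Rhou (0.599) and Arhgef26 (0.574), and for Reg3g Tmem238 (0.757), Klf15 (0.706) and Lrg1 (0.606). Prr15l was at 33.6 and 30.2 FPKM in Flox20 and Flox21, against 9.06 to 12.4 FPKM in the other chow libraries. These r are descriptions, picked as the highest of 11553 genes. Their chow part includes Flox20 and Flox21, which lay apart.

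Genes around the induction of the Reg family were counted from lists of ligands, receptors, signal carriers and targets. In cKO against Flox 1.31% of all genes were called, 0.974% lower and 0.339% higher in cKO, and the median of all genes was -0.34. Median-of-ratios scaling brought that median to 0.00 and the calls from 40 higher and 115 lower to 26 and 10, and among the list genes below it left Extl1 and Il1r1 called. On that scale the difference of Reg3d turned to 0.30, and Reg2, Reg3a, Reg3b and Reg3g stayed lower in cKO, between -3.22 and -1.29. Of the ligands, 2 of 14 listed cytokines were expressed enough to be tested and none was called. Il6 was at most 0.0275 FPKM in the chow table and Il22 at most 0.0227 FPKM. Il1b was at 0.798, 0.332, 2.70 and 2.20 FPKM in the Flox libraries and 0.530 to 1.54 FPKM in cKO.

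Of 14 cytokine receptors tested, 2 were called, both lower in cKO, with a median over the list of -0.34. Il1r1, the IL-1 receptor, was at 67.3, 104, 160 and 159 FPKM in the Flox libraries and 29.1 to 37.9 FPKM in cKO, without overlap (log2 fold change -1.73, SE 0.24, limma adjusted p = 0.0112). Il6ra, the IL-6 receptor, was at 25.3, 39.2, 56.9 and 55.8 FPKM in the Flox libraries and 17.4 to 22.8 FPKM in cKO, also without overlap (log2 fold change -1.07, SE 0.22, limma adjusted p = 0.0162). For both receptors Flox20 and Flox21 were the highest libraries. Without these 2 libraries Il1r1 was the only gene of all these lists still called, where 2 genes were called higher and 1 lower of all 11664. With the acinar level as a covariate, or with no filter on low genes, no gene of the whole table was called (0 of 11804 and 0 of 17361), the lists included.

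Of 18 genes of Jak-Stat signalling tested, none was called, and the median was -0.37. Jak1, a kinase that the IL-6 receptor uses, had an adjusted p under the threshold but a fold change under it (-0.65, SE 0.18, limma adjusted p = 0.0326). Stat3, the transcription factor of this pathway, was at 29.3, 17.3, 80.5 and 83.5 FPKM in the Flox libraries and 19.0 to 25.5 FPKM in cKO (limma adjusted p = 0.191). Socs3, its feedback inhibitor, was at 2.63, 2.41, 19.5 and 17.1 FPKM in the Flox libraries and 1.65 to 2.72 FPKM in cKO (limma adjusted p = 0.173). The 2 Flox libraries with the highest Reg2 and Reg3b thus also had the highest Stat3 and Socs3. The groups overlapped for both genes.

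Of 14 targets of Stat3 and acute-phase genes tested, Socs3 among them, none was called, with a median of -0.72. The most abundant of them were Spp1 (osteopontin; 0.01, SE 0.25) and Junb (-0.72, SE 0.61). Of 5 epithelial antimicrobial genes tested, with a median of -1.23, Defb1, a β-defensin, was called. It was at 41.5, 42.2, 64.2 and 58.3 FPKM in the Flox libraries and 16.04 to 30.6 FPKM in cKO (log2 fold change -1.23, SE 0.20, limma adjusted p = 0.00744). Of 14 genes of acinar stress tested, none was called, with a median of 0.04, and the most abundant were Nupr1 (1.34, SE 0.51) and Spink1 (1.45, SE 0.64). Extl3 was at 10.1 to 14.5 FPKM in Flox and 14.0 to 16.3 FPKM in cKO (0.34, SE 0.17, limma adjusted p = 0.139). Of the 5 genes tested with it, with a median of -0.15, the related Extl1 was called higher in cKO, at 0.135 to 0.775 FPKM in Flox and 1.21 to 1.48 FPKM in cKO (1.07, SE 0.21, limma adjusted p = 0.0141).

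In OE against Ctrl no gene of these lists was called, and with median-of-ratios scaling none was either, where the median of all genes moved from 0.44 to -0.01. Stat3 was at 35.4, 13.5, 5.13 and 37.5 FPKM in the Ctrl libraries in the order given above and 33.6 to 40.4 FPKM in OE. Socs3 was at 10.4, 2.53, 1.20 and 19.5 FPKM in Ctrl and 4.996 to 10.9 FPKM in OE. Among the Ctrl libraries those with the most Stat3 and Socs3, Ctrl1 and Ctrl5, were those with the least Reg2 and Reg3b, the reverse of the order among the Flox libraries. Without Ctrl2 and Ctrl3 limma called 12 genes of these lists, beside the 81 higher and 568 lower of all genes given above. With the acinar level as a covariate it called 4, among them Il6ra, beside 278 higher and 52 lower of all genes. Il6 reached at most 0.0253 FPKM in the HFD table.

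**Figure D5:**
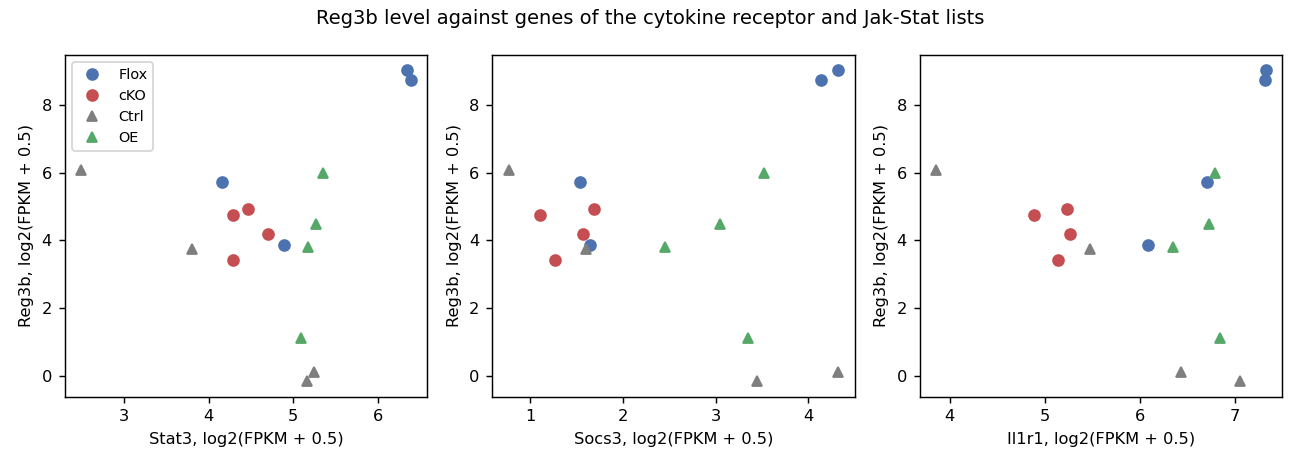
Level of Reg3b against those of Stat3, Socs3 and Il1r1, all as log2(FPKM + 0.5), 1 point per library, with circles for the chow table and triangles for the HFD table. Flox20 and Flox21 are highest on all axes among the chow libraries, while Ctrl1 and Ctrl5 combine high Socs3 with the lowest Reg3b.

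Marker levels of several other cell types differed between Flox20 and Flox21 and the other chow libraries. The β-cell markers held 51.9% and 54.7% of all FPKM in Flox20 and Flox21, against 25.8% to 36.6% in the other 6. FPKM are scaled to the library total, so the sums below are not independent of the low acinar share of these 2 libraries. The 6 neutrophil markers summed to 14.2 FPKM in Flox20 and 5.32 FPKM in Flox21, with 1 and 0 of them at 0, against 0.138 to 0.545 FPKM with 3 to 5 at 0 in the other 6 chow libraries. The 8 macrophage markers summed to 109 and 122 FPKM in Flox20 and Flox21 and to 56.1 to 89.7 FPKM in the other 6. T lymphocyte markers were low in both, at 0.047 and 0.0090 FPKM in Flox20 and Flox21 against 0.0093 to 0.280 FPKM. Fibroblast markers were at 27.5 and 27.9 FPKM against 9.55 to 16.01 FPKM, and endothelial markers at 120 and 140 FPKM against 61.1 to 104 FPKM. Duct markers summed to 228 and 237 FPKM against 122 to 163 FPKM, a sum led by Krt7 (mean 119 FPKM in Flox). The mean log2(FPKM + 0.5) of the duct markers was not higher, at 2.71 and 2.85 against 2.79 to 3.25, so the list as a whole did not rise. Adipocyte markers were at 34.4 and 16.96 FPKM against 5.58 to 14.1 FPKM. B lymphocyte markers were at 5.72 and 5.43 FPKM against 1.03 to 4.67 FPKM. In the HFD table macrophage markers were highest in Ctrl5, at 557 FPKM against 43.7 to 172 FPKM elsewhere, where Reg3b was 0.599 FPKM. The part of these cells in the Reg levels was not tested.

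Across the tables, which were normalised separately and were not tested against each other, the group means of Reg1 stood in the order Ctrl (4203 ± 4855 FPKM, SD, n = 4), cKO (3847 ± 938), Flox (3265 ± 1566) and OE (1012 ± 204). Neighbours from Ctrl to Flox differed by less than their SD, whereas OE lay below Flox by more than the SD of either group. The order for Reg2 was Flox (543 ± 528 FPKM), Ctrl (106 ± 162), OE (42.0 ± 39.4) and cKO (26.0 ± 15.2), and for Reg3b Flox (252 ± 256), OE (25.0 ± 26.6), cKO (20.99 ± 8.85) and Ctrl (20.2 ± 31.7). In every group but cKO the SD of these 2 genes was close to the mean or above it. For Reg3d the order was Ctrl (96.4 ± 107 FPKM), Flox (70.0 ± 9.96), cKO (65.9 ± 6.74) and OE (29.3 ± 7.47). Reg3a stood at 13.0 ± 8.36 FPKM in Flox, 7.20 ± 8.88 in OE, 5.66 ± 8.85 in Ctrl and 0.653 ± 0.396 in cKO. Reg3g stood at 6.09 ± 5.03 FPKM in Flox, 4.15 ± 3.56 in OE, 2.46 ± 2.84 in Ctrl and 1.19 ± 0.674 in cKO.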

How the data were processed

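The authors deposited gene-level FPKM for 16 islet libraries, 1 table for the chow libraries (17361 genes) and 1 for the HFD libraries (17318 genes). The submitters' processing notes name the genome build mm10. Aligner and counter are not given in the sources used here, and the 2 tables were treated as normalised separately. Samples were grouped by their GEO titles.

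Log2(FPKM + 0.5) values were compared with limma 3.58.1 under R 4.3.3 (trend and robust options on), with 4 libraries a group, 1 model per table, and only genes whose mean reached 0.5 FPKM. A fold change on this scale understates that of low genes. Tests were two-sided, with Benjamini-Hochberg adjustment over all genes tested. The members and lists were chosen with earlier results of these data known, so values of the members are given with no p and tests are printed for other genes alone. The exception is a count of the members' relations to the acinar level, from which nothing is read. Genes outside the family were named when called, when most abundant in a list with no call, or when most like a member, and 1 gene named by this rule is not reported here. Il6, Il22, Socs3, Jak1 and Extl3 were singled out after their values were seen. The calling was tested on simulated data. Promoters came from RefSeq, exons from GENCODE. Each alternative changed 1 choice: a pseudocount of 1 or 0.1, no filter on the mean or one of 1 FPKM, median-of-ratios scaling, limma without its trend and robust options, a block for the replicate number, the acinar level as a covariate or by its transcription factors, the heatmap libraries alone, or a library left out.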

Additional observations from a re-analysis of the deposited data

How the results depend on the processing

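In cKO against Flox 4 members lay below -1 in the alternatives run, each library left out included, except for 3 members with the acinar covariate, the heatmap libraries, or without Flox20 and Flox21. The genes called in the ligand, receptor, signalling and target lists numbered 4, but 0 with no filter on low genes and with the acinar covariate, 1 without Flox20 and Flox21, 2 with median-of-ratios scaling, 14 with the heatmap libraries and 2 to 14 with 1 library left out. Of all genes tested, 40 higher and 115 lower were called, but 0 of 17361 with no filter and 0 of 11804 with the covariate, 2 and 1 without Flox20 and Flox21, 26 and 10 with median-of-ratios scaling, and 153 and 546 with the heatmap libraries. The low counts came without Flox20, Flox21 or cKO9 and the high ones without Flox16 (11) or Flox17 (14). Replicate numbers did not pair the libraries, since deviations of same-numbered libraries correlated at -0.215 to 0.122, and with the replicate block 8 list genes were called, beside 102 higher and 166 lower of all genes, and no count of members changed.

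In OE against Ctrl the signs of members turned with median-of-ratios scaling for Reg2 (-0.031), with the acinar covariate for Reg3d (0.092), and with the heatmap libraries for Reg2 (-1.05), Reg3a (-0.56), Reg3b (-0.19) and Reg3g (-0.21). With 1 library left out the differences ran from -1.55 to 0.40 for Reg1, -0.55 to 2.03 for Reg2, -0.0071 to 1.79 for Reg3a, 0.53 to 2.60 for Reg3b, -1.23 to 0.57 for Reg3d and 0.27 to 1.55 for Reg3g. The highest came without Ctrl3, or without OE2 for Reg3g, and the lowest without Ctrl5 for Reg1, Reg2 and Reg3d, without OE4 for Reg3a, and without Ctrl1 for Reg3b and Reg3g. Without Ctrl2 and Ctrl3, chosen after seeing the data, 12 list genes were past the call thresholds, among 81 genes higher and 568 lower of 12311. Reg1 was then at 1.89 and Reg3d at 2.05. The family was chosen on these values and the removed libraries had the highest Reg1 and Reg3d, so nothing is drawn from these differences of members. With the acinar covariate 4 list genes were called, beside 278 higher and 52 lower of 12132. Median-of-ratios scaling moved the median of all genes from -0.34 to 0.00 in chow and from 0.44 to -0.01 in HFD. The 12 relations of members to the acinar level are descriptions, since the members were chosen on these same libraries. The number with an adjusted p under 0.05 is given only to show how it moved with the processing. It was 7 over all libraries of both tables, 11 with that scaling, and 3 to 9 with 1 library left out. The low counts were 3 without Flox20 or Flox21 and 4 without cKO9. These counts are no test of the members. Their chow part over all 8 libraries rests in large part on Flox20 and Flox21, so nothing is read from them. Where a value moved, the cause was not tested. Depth in reads is unknown, so counting error could not be given.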
